A study of Mus musculus with 8 samples.

Results

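The transcriptional targets of p53 were followed in mouse liver tissue that carries no p53. The set holds 32 genes listed by symbol as p53 targets, and no measured value enters the rule. Of these, 29 had at least 1 probe set annotated to that gene alone on the tumour arrays (58 probe sets, among 18194 such genes), and 27 had one on the adenovirus arrays (46 probe sets, among 12394 genes). All 46 probe sets were also on the tumour arrays. Bax, Fdxr and Gdf15 were not analysed here, and Eda2r and Tigar were read in the tumours only.

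All mice were given as p53-/- on a C57BL/6J background, so by this genotype neither comparison has animals with p53. The p53 gene itself was not analysed here, so its loss was not checked on these arrays. One data set holds single hepatocellular carcinomas (HCC) of HBs transgenic mice aged 12 to 15 months, 3 from mice labelled mTERC- and 3 from mice labelled mTERC+, with 1 mouse behind each tumour. Terc is the RNA template of telomerase, and mice without it lose telomere sequence over generations; the sources used here give neither the generation of the mice nor the promoter of the transgene. The other data set holds liver taken 48 h after intravenous adenovirus carrying TRF2DBDM, a shortened TRF2, the shelterin protein that caps chromosome ends, known to uncap telomeres, or carrying GFP. Liver RNA of 3 mice was pooled for each of these viruses and put on 1 array, so this pair has no replicates. The values are MAS5 expression signals, a brightness per probe set on a linear scale.

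p53 is a transcription factor that DNA damage and uncapped telomeres activate. Its targets stop the cell cycle, start cell death, help repair DNA and feed back on p53 itself through Mdm2. Many of them are also driven by other factors, among them p63 and p73, the stress factor ATF4 and the liver's receptors for foreign compounds, so that a target can be transcribed in a cell without p53.

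The sequence through which p53 acts is a pair of decamers, each with the core letters C and G kept, set apart by a short spacer. In RefSeq promoters of build GRCm38.p6, the 250 bases before the start were read for 20 of the members, and 6 of these (30%) held such a pair on either strand with at most 2 mismatches over both decamers and a spacer of at most 13 bases. Among all 27025 genes with a promoter entry, 1046 (3.87%) held one. At least 1 exact decamer stood in 10 of the 20 members (50.0%) and in 8.2% of all genes. The windows of the 6 members are printed 5′ to 3′ on the strand of the gene, with the decamers in capitals, since they are the letters p53 would read if it were present; a match is a description and not a measured site.
Cdkn1a: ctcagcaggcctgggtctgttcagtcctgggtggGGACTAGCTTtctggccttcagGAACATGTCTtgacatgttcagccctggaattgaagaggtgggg
Ccng1: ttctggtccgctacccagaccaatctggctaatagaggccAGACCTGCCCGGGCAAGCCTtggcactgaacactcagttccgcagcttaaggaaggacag
Rps27l: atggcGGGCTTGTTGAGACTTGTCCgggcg
Gadd45a: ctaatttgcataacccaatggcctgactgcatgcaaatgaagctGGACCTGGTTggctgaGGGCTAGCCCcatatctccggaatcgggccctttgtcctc
Sesn1: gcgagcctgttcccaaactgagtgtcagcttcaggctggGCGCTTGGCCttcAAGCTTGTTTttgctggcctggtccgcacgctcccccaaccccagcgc
Trp73: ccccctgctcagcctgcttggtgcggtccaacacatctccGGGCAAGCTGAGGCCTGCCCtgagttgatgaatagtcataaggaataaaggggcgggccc
The window of Cdkn1a lies at chr17:29090872-29090971 on the plus strand, with 0 mismatches, a spacer of 12 bases and the pair ending 41 bases before the start. A further decamer, with 1 mismatch, follows the second marked one with no spacer and is left in lower case. It forms another possible pair with that decamer, and the capitals show only the pair with fewer mismatches. That of Ccng1 lies at chr11:40755422-40755521 on the minus strand, with 1 mismatch and no spacer, 175 bases before the start. That of Rps27l lies at chr9:66946291-66946320 on the plus strand, with 1 mismatch and no spacer, 97 bases before the start. Each of the remaining windows had 2 mismatches. Gadd45a is at chr6:67037408-67037507 on the minus strand with a spacer of 6 bases, Sesn1 at chr10:41887214-41887313 on the plus strand with a spacer of 3, and Trp73 at chr4:154097180-154097279 on the minus strand with no spacer. Of these 6 genes, Cdkn1a and Rps27l were bright on all 8 arrays, and Gadd45a and Trp73 were below the array median on both adenovirus arrays.

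The arrays were scaled alike, with a trimmed mean of 150.0 on each, but mTERC- tumour 2 stood apart. Its Gapdh 3′ to 5′ probe ratio was 13.8, against 0.983 to 1.18 on the other 5 tumour arrays, and its median signal was 75.1, against 54.5 to 59.4. The 18S control was weak in mTERC- tumours 2 and 3, at 319 and 349, against 11010 to 27810 in the 4 remaining tumours. Hepatocyte markers were present on every array, with summed signals of 149100 to 227800 in mTERC- tumours and 178700 to 227100 in mTERC+ tumours, and of 57520 in the TRF2DBDM pool and 41960 in the GFP pool. The labels call the tissue hepatocytes, and markers of other cells were present too. Neutrophil markers summed to 9174 to 22020 in mTERC- tumours and 405 to 3097 in mTERC+ tumours, with all 8 tested markers higher. Macrophage markers were lower in mTERC- tumours for 9 of 10 (summed to 14420 to 20010 in mTERC- tumours and 11860 to 50540 in mTERC+ tumours). In such bulk RNA, fewer cells of a type and less RNA per cell cannot be told apart, and the part of these cells in the values below was not tested.

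Without p53, part of its targets still gave a signal at or above the middle of the array. A gene was counted as kept when its brightest probe set was at or above the array's median signal on every array of a data set. In the tumours this held for 12 of 29 members (41.4%), against a background of 37.6% of all genes (6835 of 18194). It held for 3 of 30 genes listed as not used in liver (10.0%). The 12 were Mdm2, the ligase that marks p53 for destruction, the cell cycle inhibitors Cdkn1a and Btg2, Ccng1, Ptp4a3, Ei24, Rps27l, Trp53inp1, the repair genes Ddb2 and Xpc, Sesn1 and Ephx1. In the adenovirus pools 18 of 27 members (66.7%) were kept on both arrays, against 53% of all genes and 2 of 30 genes not used in liver (6.67%). The share in the tumours was near its background, and in both data sets most genes not used in liver read below the median on 1 or more arrays. The median is not a limit of detection, since the fourth highest of these 30 genes read 94.7 to 220.9 on the tumour arrays. With the signal of that gene on each array as the bar, 8 of 29 members were kept in the tumours, against 23.3% of all genes. Mdm2, Ddb2, Xpc and Sesn1 were then not kept. In the pools 18 of 27 members were kept at that bar, against 51.8% of all genes.

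No member was below the median on all 6 tumours (0 of 29, against 8.55% of all genes), and 6 of 27 were below it on both pools, against 37.2% of all genes. With the 75th percentile of each array in place of the median, 7 members were kept in the tumours (Btg2, Cdkn1a, Ei24, Ephx1, Ptp4a3, Rps27l and Trp53inp1) and 6 in the pools (Aen, Btg2, Cdkn1a, Ei24, Ephx1 and Rps27l). These are 24.1% of members against 24% of all genes in the tumours, and 22.2% against 27% in the pools, where the members' share was thus above the background at the median and below it at the higher bar. The signal of a probe set depends on its probes as well as on its transcript, so signal sets which members are described and says nothing of which gene has more RNA.

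**Figure D1:**
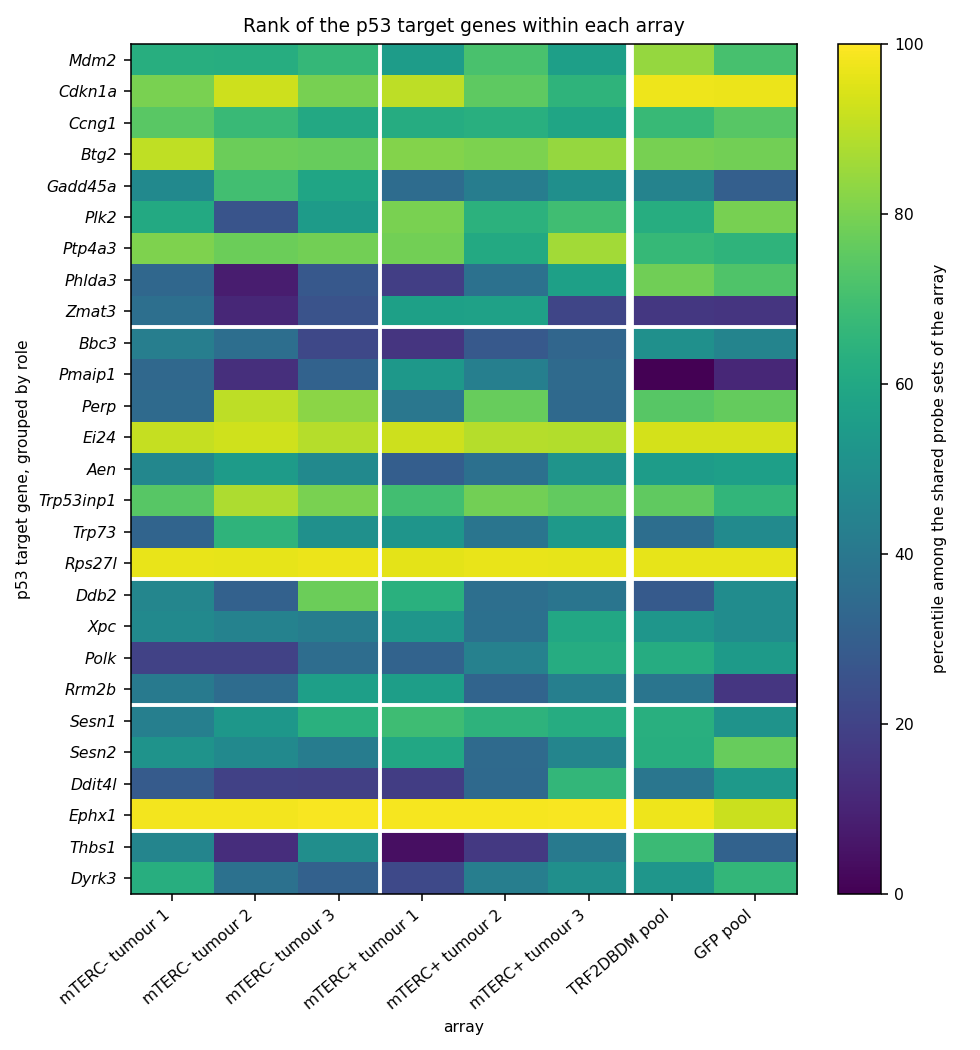
Percentile of each p53 target gene's probe set among the 22690 probe sets that both array types share, 1 column per array (3 mTERC- tumours, 3 mTERC+ tumours, the TRF2DBDM pool and the GFP pool). Ephx1, Rps27l and Ei24 were high on all 8 arrays, while Cdkn1a was at 65.0 to 92.5 in tumours and at 97.4 and 97.1 in the pools.

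Several members were bright in all tumours. Ephx1, the microsomal epoxide hydrolase that detoxifies reactive compounds in liver, had 6515, 5536 and 9063 in mTERC- tumours and 7146, 6399 and 9637 in mTERC+ tumours. Rps27l, a relative of a small-subunit ribosomal protein, had 3268, 2212 and 2965 in mTERC- tumours and 2579.6, 2865 and 2801 in mTERC+ tumours, on a probe set whose suffix says that its probes match further transcripts. Ei24, an endoplasmic reticulum protein of autophagy, had 1069, 1078 and 799 in mTERC- tumours and 1255.5, 781 and 739.7 in mTERC+ tumours. The groups overlapped for all 3, and each varied by less than 1 log2 unit over the 6 tumours (0.80, 0.56 and 0.74).

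Cdkn1a, the p21 inhibitor of cyclin-dependent kinases and the best-known p53 target, varied far more. Its signal was 357, 1048 and 371 in mTERC- tumours and 882, 283 and 169.8 in mTERC+ tumours, a range of 2.42 log2 units. One tumour of each genotype was high, and the groups overlapped. A second probe set gave 170.1, 338 and 320.5 in mTERC- tumours and 550.2, 222 and 92.0 in mTERC+ tumours, with mTERC+ tumour 1 highest. Btg2, an antiproliferative gene, had 955, 306 and 324 in mTERC- tumours and 409, 381 and 502 in mTERC+ tumours, with mTERC- tumour 1 alone at the top.

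The 3 members with the lowest mean tumour level were Eda2r, Thbs1 and Bbc3. The death receptor gene Eda2r had 5.8, 34.5 and 30 in mTERC- tumours and 6.7, 152.5 and 40.6 in mTERC+ tumours. Thbs1, an inhibitor of vessel growth, had 83.1, 14.1 and 97.3 in mTERC- tumours and 5.3, 14.1 and 70.1 in mTERC+ tumours, above the array median in 3 of 6 tumours. Bbc3, which encodes the cell death protein PUMA, had 74.7, 66.5 and 22.7 in mTERC- tumours and 12.3, 39.1 and 48.1 in mTERC+ tumours. These 3, with Phlda3 and Ddit4l, had a mean level below the median of all probe sets and were left out of the main test.

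The mTERC- and mTERC+ tumours were compared to see whether the targets differed with telomerase status where p53 cannot act. None of the 24 tested members passed a Benjamini-Hochberg adjusted p of 0.05 in limma (0 of 24), where 1 of all 11980 tested genes did (0.00835%). Dropping mTERC- tumour 1 made it 6 genes and dropping mTERC+ tumour 2 made it 2. It was 0 when mTERC- tumour 2, mTERC+ tumour 1 or mTERC+ tumour 3 was dropped. The lowest adjusted p of a member was 0.953. At an unadjusted p under 0.05 there was 1 member, Plk2, against 5.04% of all genes. The mean log2 level was higher in mTERC- tumours for 17 members and lower for 7, where 51.4% of all tested genes were higher. When any single tumour was dropped, 13 to 16 members were higher, against 50.0% to 53.3% of all tested genes. The median log2 difference was 0.07 for the members and 0.02 for all tested genes. The groups did not overlap for 2 members, Plk2 and Pmaip1, both lower in mTERC- tumours, against 10.1% of all genes.

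Plk2, a kinase of the polo family that p53 induces, had 139.5, 32.8 and 119.7 in mTERC- tumours and 370.4, 174.5 and 207 in mTERC+ tumours. All 3 mTERC- tumours were below all 3 mTERC+ tumours, and the means were 97.3 ± 56.8 in mTERC- tumours and 250.6 ± 105 in mTERC+ tumours (SD, n = 3 each). The log2 difference was -1.19 with a standard error of 0.46 and a 95% interval of -2.17 to -0.20, at an unadjusted p of 0.0216 and an adjusted p of 0.953 in limma. Without mTERC- tumour 2 the difference was -0.75. The second Plk2 probe set read 4.2 to 16.6 on all 6 tumours, too dim to be compared.

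Pmaip1, which encodes the cell death protein NOXA, had 51.7, 14.3 and 46.2 in mTERC- tumours and 110.8, 81.3 and 52.1 in mTERC+ tumours. The groups were set apart by a gap of 0.4 signal units, between mTERC- tumour 1 and mTERC+ tumour 3, and all 3 mTERC- signals were below the array medians. The log2 difference was -0.72 ± 0.56 (SE), with an interval of -1.93 to 0.48, and -0.45 without mTERC- tumour 2. Zmat3, a zinc-finger protein that binds RNA, had 58.9, 12.3 and 31.9 in mTERC- tumours and 124.2, 134.8 and 19.1 in mTERC+ tumours, with mTERC+ tumour 3 among the low values.

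Members with a higher mean in mTERC- tumours were not past the test either. Perp, a membrane protein of cell junctions and of cell death, had 54.1, 762 and 469 in mTERC- tumours and 67.6, 308 and 50.8 in mTERC+ tumours. High and low tumours stood in both genotypes, its range of 3.26 log2 units was the widest of the members, and the log2 difference was 1.20 ± 0.70 (SE; interval -0.30 to 2.71), 0.56 without mTERC- tumour 2 and 2.16 without mTERC- tumour 1. Gadd45a, a stress sensor of growth arrest, had 88.3, 221 and 141.5 in mTERC- tumours and 55.5, 78.9 and 95.2 in mTERC+ tumours. Only mTERC- tumour 1 lay among the mTERC+ values, and the difference was 0.70 ± 0.44 (SE; interval -0.25 to 1.65), and 0.43 without mTERC- tumour 2. Trp53inp1, a promoter of p53-dependent death and of autophagy, had 256, 586 and 386.5 in mTERC- tumours and 209.7, 343 and 289 in mTERC+ tumours. Its values overlapped, and the difference of 0.45 became 0.17 without mTERC- tumour 2.

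Mdm2, which reports p53 activity in many tissues, had 150.9, 172 and 197 in mTERC- tumours and 118, 237 and 120.1 in mTERC+ tumours on its brightest probe set. The groups overlapped, with mTERC+ tumour 2 above all mTERC- tumours, and the log2 difference was 0.16 (interval -0.68 to 1.00). Another Mdm2 probe set gave 154.5, 347 and 134 in mTERC- tumours and 80.0, 128 and 71.8 in mTERC+ tumours. On that probe set the groups did not overlap, and the difference was 0.89 ± 0.44 (SE) at an unadjusted p of 0.0627 and an adjusted p of 0.940 over all probe sets in limma. Its highest value was that of mTERC- tumour 2, and this probe set was not fitted without that tumour. The groups were parted between 134 in mTERC- tumour 3 and 128 in mTERC+ tumour 2. One more Mdm2 probe set, a dim one, had 5.3, 7.2 and 45.2 in mTERC- tumours and 43.3, 108.5 and 48.6 in mTERC+ tumours, below the level needed for the test.

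Sesn1, a sestrin that restrains growth signalling, had 76.2, 128 and 171 in mTERC- tumours and 203, 176 and 149.0 in mTERC+ tumours, with a difference of -0.44 ± 0.40 (SE). It was -0.20 without mTERC- tumour 1 and -0.93 with the 18S control as a block. Cdkn1a differed by 0.51 (interval -0.63 to 1.65), by 0.03 without mTERC- tumour 2 and by 1.13 when mTERC+ tumour 1 was dropped.

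The repair genes varied among the tumours. Over the 6 tumours, Ddb2 and Xpc, which recognise damaged bases for nucleotide excision repair, ran from 59.5 to 220.5 and from 64 to 139.1. Polk, a polymerase that copies past lesions, ran from 11.8 to 123, and Rrm2b, the ribonucleotide reductase subunit that p53 induces, from 51.4 to 128.5. None of the 4 separated the genotypes, and Polk's probe sets disagreed, with log2 differences of 0.37 and -0.94. Among the rest, Ccng1 ran from 125 to 248, Ptp4a3, a phosphatase, from 153 to 591, Aen from 41.4 to 136, Sesn2 from 57.3 to 141.0, Dyrk3 from 20.9 to 153 and Trp73, the p53 relative p73, from 48.1 to 188. Phlda3 ran from 9.8 to 122.8 and Ddit4l, an inhibitor of mTOR signalling, from 15.2 to 180.6. The genotypes overlapped in all of these.

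**Figure D2:**
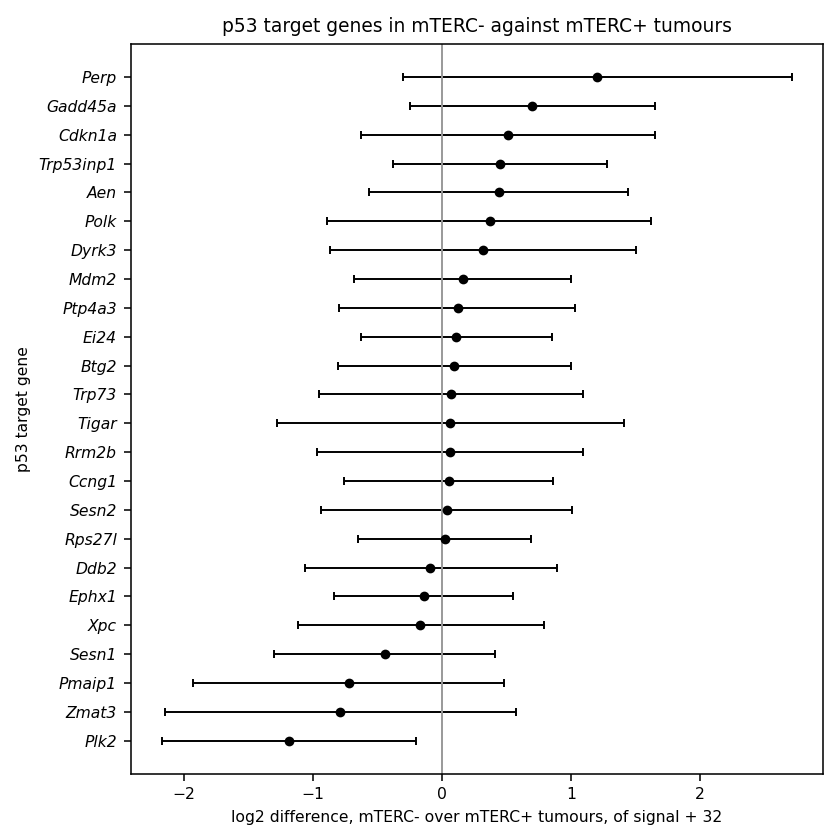
Log2 difference of each tested p53 target gene, mTERC- over mTERC+ tumours (3 each), with its 95% interval from limma. The interval of Plk2, at -2.17 to -0.20, is the only one of the 24 that leaves out 0, and its adjusted p was 0.953.

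By role, the mean log2 level was higher in mTERC- tumours for 6 of the 8 tested genes of feedback and the cell cycle and lower for 2 (median log2 difference 0.11). Among all tested genes 51.4% were higher. Of the 7 tested cell death genes 6 were higher and 1 lower (0.11), of the 4 repair genes 2 were higher and 2 lower (-0.01), and of the 4 genes of metabolism and stress 2 were higher and 2 lower (-0.05). The 2 higher ones of metabolism and stress, Tigar and Sesn2, were at 0.06 and 0.04 and had lower mean signals in mTERC- tumours, 70.2 against 86.2 and 93.0 against 93.5 in mTERC+ tumours. The remaining gene, the kinase Dyrk3, was at 0.32. Of the tested members, 9 had their highest value in mTERC- tumour 2 and 6 their lowest, against 27.2% and 22.3% of all tested genes. The intervals leave room for changes: that of Rps27l, the narrowest of the 24, ran from -0.65 to 0.69, and that of Tigar, a phosphatase of sugar metabolism, from -1.28 to 1.41. Tigar had 59.7, 106.7 and 44.2 in mTERC- tumours and 182.7, 68.4 and 7.5 in mTERC+ tumours. Of 13 members with several tested probe sets, 7 had probe sets with opposite signs (Aen, Btg2, Ccng1, Ddb2, Polk, Tigar and Trp53inp1), so a direction for these rests on the probe set used.

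The adenovirus pair sets liver with TRF2DBDM against liver with GFP, again without p53. With 1 pooled array per virus there is no replicate check, and the values compare these pools. Of 27 members, 21 reached the array median in at least 1 pool. Of these, 13 were above and 8 below the GFP pool, where 4050 of all 7789 genes compared were above it. The median log2 ratio was 0.18 for the members and 0.02 for all genes compared. Bbc3 and Xpc reached the array median in the TRF2DBDM pool only, and Ddit4l in the GFP pool only. For these the filter favours the direction that was counted. Of the 21, 1 was at least 2-fold higher in the TRF2DBDM pool (background 4.62% of genes) and 0 were at least 2-fold lower (background 2.9%). Ratios are of the signal plus 32.

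Ephx1 was the member past 2-fold, with 1673 in the TRF2DBDM pool and 584.6 in the GFP pool, a 2.77-fold ratio. It is also a gene of drug metabolism in hepatocytes. Of 8 hepatocyte markers, 7 were higher in the TRF2DBDM pool too, with a median log2 ratio of 0.52. Alb had 11361 in the TRF2DBDM pool and 8672 in the GFP pool. Hnf4a, the 1 marker that was lower, had 1592 in the TRF2DBDM pool and 2052 in the GFP pool. The part of hepatocyte content in the Ephx1 ratio was not tested. Mdm2 had 269 in the TRF2DBDM pool and 124.6 in the GFP pool, 1.92-fold higher. Its second probe set had 222 in the TRF2DBDM pool and 76.0 in the GFP pool, 2.35-fold higher, so both pointed the same way. Plk2 had 86.7 in the TRF2DBDM pool and 200.0 in the GFP pool, 1.95-fold lower.

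The sestrin genes and 3 further members had smaller ratios. Sesn2, which amino acid and oxidative stress also induce, had 88.1 in the TRF2DBDM pool and 170.7 in the GFP pool, a log2 ratio of -0.76, while its other probe set gave 83.2 in the TRF2DBDM pool and 77.3 in the GFP pool. Sesn1 had 88.4 in the TRF2DBDM pool and 49.2 in the GFP pool, a log2 ratio of 0.57, and its 2 other probe sets read 5.2 to 13.8, too dim to compare. Trp53inp1 had 160.7 in the TRF2DBDM pool and 97.0 in the GFP pool (0.58), with 0.11 on its other probe set. Aen, an exonuclease of apoptosis, had 247 in the TRF2DBDM pool and 160.0 in the GFP pool (0.54), with 0.05 on another. For Sesn2, Trp53inp1 and Aen the second probe set thus showed little of the difference. Dyrk3 had 57.7 in the TRF2DBDM pool and 99.2 in the GFP pool (-0.55).

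By role, 5 of 7 compared genes of feedback and the cell cycle were higher in the TRF2DBDM pool (median log2 ratio 0.14). So were 3 of 6 cell death genes (0.14), 2 of 4 genes of metabolism and stress (0.10) and 2 of 2 repair genes, Polk and Xpc (0.33). Among all genes compared, 4050 of 7789 were higher. The other Polk probe set, the one used in the tumours, was at -0.09. Xpc reached the array median in the TRF2DBDM pool only. The repair genes Rrm2b and Ddb2, at 0.75 and -0.53, were too dim to be compared. The 6 members below the median in both pools were Rrm2b, Gadd45a, Ddb2, Trp73, Pmaip1 and Zmat3. The cell cycle inhibitors Cdkn1a and Btg2 were bright in both pools and close to each other. Cdkn1a had 1727 in the TRF2DBDM pool and 1519.7 in the GFP pool, a log2 ratio of 0.18, and its second probe set had 629.6 in the TRF2DBDM pool and 620.5 in the GFP pool. Btg2 had 201 in the TRF2DBDM pool and 192 in the GFP pool. Of the cell death genes, Rps27l had 1152 in the TRF2DBDM pool and 1167 in the GFP pool, Ei24 had 684 in the TRF2DBDM pool and 748 in the GFP pool, and Pmaip1 read 0.6 in the TRF2DBDM pool and 4.6 in the GFP pool, among the lowest signals of both arrays. Thbs1 had 78.3 in the TRF2DBDM pool and 53.6 in the GFP pool on its brightest probe set, and 112.7 in the TRF2DBDM pool and 20.4 in the GFP pool on another, where the ratio was 2.76-fold. Macrophage markers moved in this pair as well, with 5 of 9 compared higher by 2-fold or more in the TRF2DBDM pool and 2 lower by as much; their part in the ratios of the members was not tested.

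**Figure D3:**
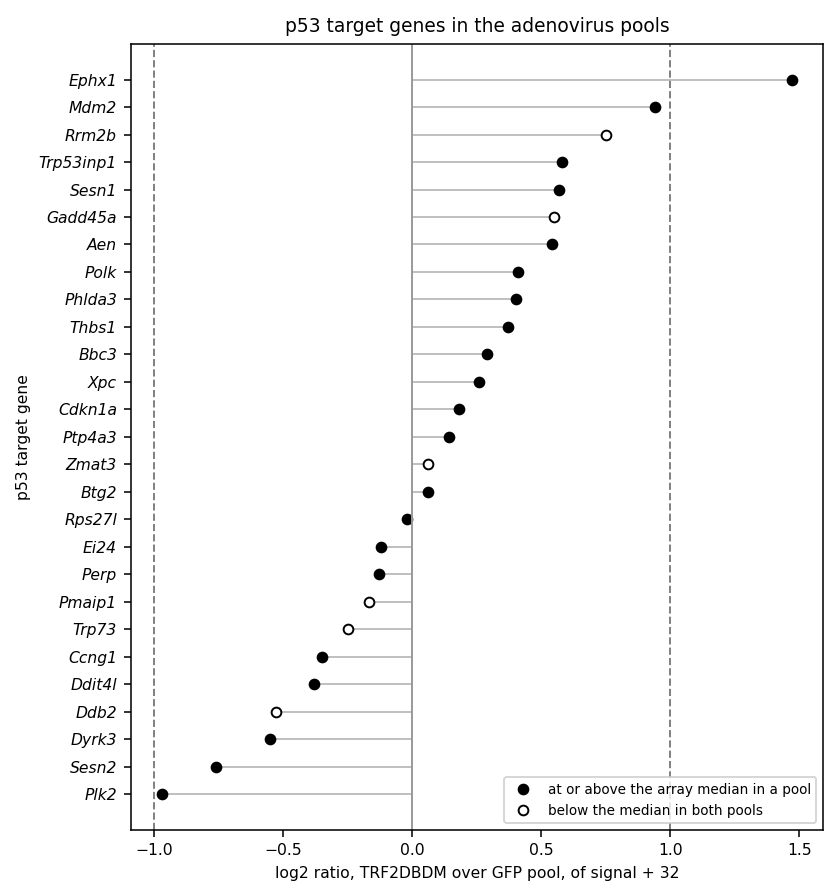
Log2 ratio of the TRF2DBDM pool over the GFP pool for the 27 p53 target genes on these arrays, 1 pooled array each, on the scale of signal plus 32. Filled points are the genes compared, and open points are the 6 below the array median in both pools. Ephx1 lies beyond the 2-fold line at 1.47, with Mdm2 at 0.94 and Plk2 at -0.97 just inside the lines.

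The 2 data sets used different array types and were scaled separately, so ranks within the 22690 shared probe sets were set side by side without a test. Each member was read on the probe set with the highest mean rank over the 8 arrays, which for some is not the one used above. Of 27 members, 6 ranked higher in both pools than in every tumour and 2 ranked lower in both, against 13% and 11.8% of all shared probe sets. Cdkn1a was at percentiles 97.4 and 97.1 in the TRF2DBDM and GFP pools and at 65.0 to 92.5 in the tumours, and its second probe set at 92.8 and 92.4 against 48.7 to 85.3. Phlda3, an inhibitor of the kinase Akt, was at 78.5 in the TRF2DBDM pool and 72.6 in the GFP pool, and at 7.9 to 56.9 in the tumours. Bbc3, Aen, Ei24 and Sesn2 were the others above. Aen was so by little, at 55.2 in the TRF2DBDM pool and 56.3 in the GFP pool, against at most 54.8 in the tumours. So was Ei24, at 93.4 and 93.7 against at most 92.8. Pmaip1 was at 0.2 in the TRF2DBDM pool and 11.3 in the GFP pool, below 13.3 to 53.4 in the tumours, and Ephx1 at 97.4 and 91.9, below 98.3 to 99.2. Over all 46 probe sets of the members, the unit of that background, 12 ranked above every tumour in both pools and 4 below. The 4 included other probe sets of Ccng1 (33.5 in the TRF2DBDM pool and 30 in the GFP pool, 55.9 to 72.6 in tumours) and Ddb2 (17.8 in the TRF2DBDM pool and 27.0 in the GFP pool, 36.8 to 69.6 in tumours), which are the ones used for these genes within the tumours. Transformation, the transgene, the virus and the array type all differ between these data sets and cannot be told apart. Age may differ as well, since the labels give it for the tumour mice only.

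**Figure D4:**
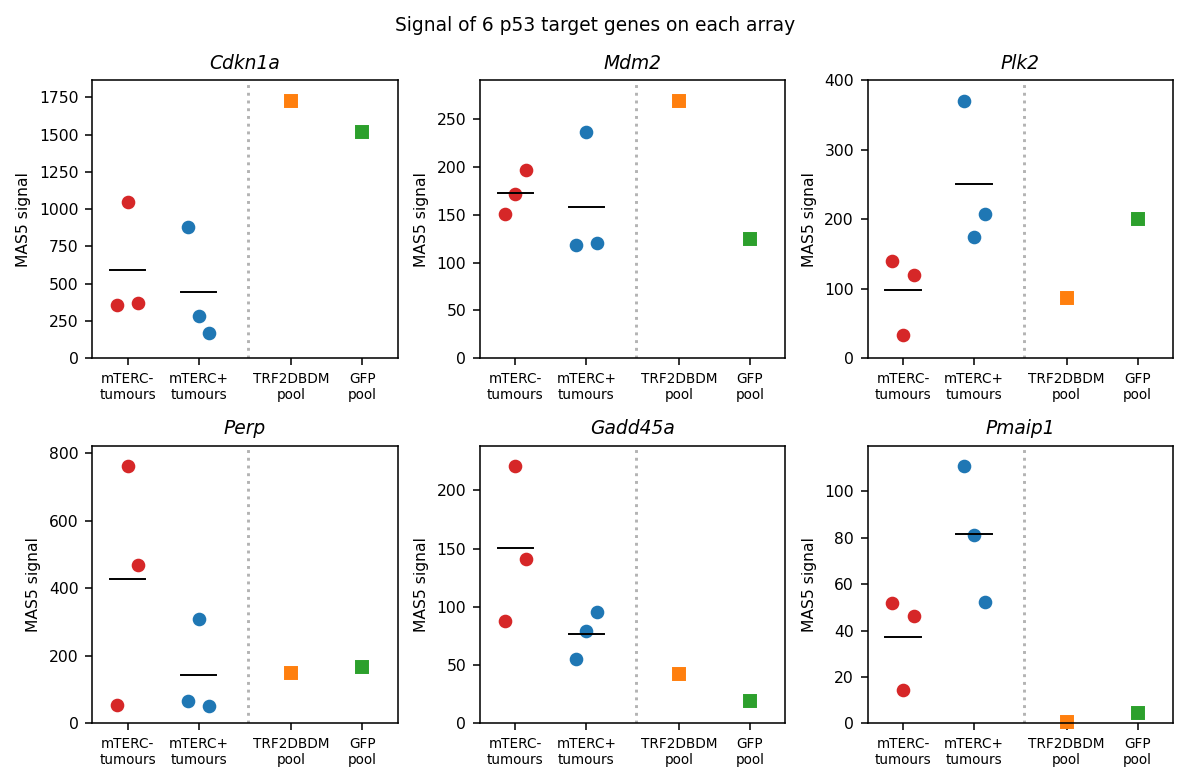
MAS5 signal of selected p53 target genes on each array, 1 point per tumour or pool and a bar at the mean of 3 tumours, with a linear axis from 0 for each gene. Plk2 shows the 3 mTERC- tumours at 32.8 to 139.5, all below the mTERC+ tumours at 174.5 to 370.4, at an adjusted p of 0.953 in limma. Its lowest value is that of mTERC- tumour 2, and the log2 difference was -0.75 without that tumour. The TRF2DBDM pool, at 86.7, lies below the GFP pool, at 200.0. Each pool is 1 array, of another type and scaled separately, so its points are not to be compared with the tumours.

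Other genes of the pathway were counted from lists. Of 24 genes on the tumour arrays that regulate p53, 20 were tested in the tumours, with 11 higher and 9 lower in mTERC- tumours, a median log2 difference of 0.10 and 0 past the threshold. Of 17 further p53 targets on these arrays 14 were tested, with 5 higher and 9 lower (median -0.16) and again 0 past the threshold; the lowest p was that of Cd82, a tetraspanin, at -1.0 (unadjusted p = 0.0473 in limma). Proliferation genes that p53 represses through p21 leaned to mTERC- tumours, with 16 of 17 tested higher (median 0.45) against 51.4% of all genes, yet 0 passed. The lowest value was in mTERC+ tumour 3 for 14 of the 17, and without that tumour 11 were higher and 6 lower (median 0.25). Cdc20, an activator of mitotic exit, had 187, 595 and 673 in mTERC- tumours and 391, 288 and 8.6 in mTERC+ tumours. In the pools 16 of 18 of these genes were lower in the TRF2DBDM pool (median -0.36), against 3731 of all 7789 genes compared. Among them was the mitotic kinase Plk1, with 531 in the TRF2DBDM pool and 1292 in the GFP pool. Cdkn1a, through which p53 acts on these genes, had a log2 ratio of 0.18 in the same pools. A link between that ratio and the proliferation genes was not tested, and each pool is 1 array.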

How the data were processed

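Total RNA of 6 single tumours and of 2 liver pools was labelled from 6 microg and put on 8 Affymetrix arrays, per the labels' protocols. The authors deposited MAS5 signals, that is intensities of probe sets that are not log-transformed, and MAS5 is named in the submitters' processing notes. The sources used here give neither its version nor its scaling target. Every array had a mean of 150.0 without the lowest and highest 2% of signals, so the arrays were used as scaled. Tumour arrays held 45101 probe sets (34958 with 1 gene symbol, 932 with several, 9211 with none) and adenovirus arrays 22690 (20393, 691 and 1606). Only probe sets with 1 symbol were named, so a Thbs1 probe set shared with another gene was left out. p53 and Terc themselves were not analysed here.

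A pseudocount of 32 was added to each signal before log2, and the probe set with the highest mean stood for its gene. Fold changes on this scale understate the changes of dim genes. The tumour groups were fitted in limma 3.58.1 (R 4.3.3, variance trend, two-sided) over 11980 of 18194 genes, those whose mean level reached the median of all probe sets, with Benjamini-Hochberg adjustment over all of them. For the pools, a gene had to reach the array median in 1 or both of them, and ratios were taken without a test. Arrays hold no count of molecules, and their number limits the precision. In simulated tumours with 11980 genes, 73 of 100 genes changed 4-fold and 89 of 100 changed 8-fold were called. Both sets were changed in the same simulation, with independent normal noise and no array of lower quality. With fewer changed genes or uneven arrays the share called can be lower, so these counts do not say which changes the tumour test would miss.

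The rule for members uses symbols alone, but the members, the lists and the tests were chosen with earlier results of these data known. Leaving out each tumour for the proliferation list was added after seeing the data. All 32 members are named. Values are given per sample for the 8 members with the smallest p in the tumours, the 8 with the largest ratio in the pools, the 5 with the highest and the 3 with the lowest tumour level and the 3 with the widest range, and further values beside these were chosen after they were seen. Alternatives were other normalizations, pseudocounts, level filters, probe set rules and variance models, array weights, an 18S block and each tumour left out in turn.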

Additional observations from a re-analysis of the deposited data

How the results depend on the processing

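No member passed the threshold under any of the 17 alternatives run for the tumours (0 throughout), leaving out each tumour included, and the lowest adjusted p of a member in limma was 0.456, without mTERC- tumour 1. The median log2 difference of the members stayed between 0.01 and 0.13 with each tumour left out and was -0.02 with the 18S control as a block. That block also turned Perp to -0.71 and Trp53inp1 to -0.10; it sets mTERC- tumour 1 alone against the mTERC+ tumours, since the other mTERC- tumours have low 18S. Plk2 stayed lower in mTERC- tumours, at -1.52 to -0.65. In the pools, 2 members were at least 2-fold higher with a pseudocount of 1 and with the mean of the probe sets (Ephx1 and Mdm2, against 1 as reported), and 1 was at least 2-fold lower with median centring and with a pseudocount of 1 (Plk2, against 0). Over all genes, 360 were at least 2-fold higher and 226 lower in the TRF2DBDM pool as reported, 280 and 333 with median centring, 684 and 438 with a pseudocount of 1, and 224 and 142 with a pseudocount of 64. Members kept at the 75th percentile of the array were 7 in the tumours and 6 in the pools, against 12 and 18 at the median. All genes were at 24% and 27% there, against 37.6% and 53%, so the members' share in the pools was above that of all genes at the median and below it at the higher bar. Low signals limit Eda2r, Thbs1, Bbc3 and Pmaip1. No paired analysis was possible because the labels give the tumours no shared numbers.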

Other observations

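Tnfrsf10b, a death receptor gene among the further p53 targets, was dim and left out of the main test, and was singled out after its values were seen. Its brighter probe set had 109.0, 97.6 and 67.8 in mTERC- tumours and 18.1, 7.9 and 13.1 in mTERC+ tumours, with no overlap. With no level filter the log2 difference was 1.45 ± 0.50 (SE, n = 3 each), at an unadjusted p of 0.00972 and an adjusted p of 0.955 over 18194 genes in limma. A second probe set gave 28.0, 70.9 and 7.6 in mTERC- tumours and 5.7, 6.5 and 73.5 in mTERC+ tumours, where the groups overlapped.

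Genes of the integrated stress response, which share some targets with p53, had 6 of 9 tested genes higher and 3 lower in mTERC- tumours (median 0.15), with 0 past the threshold. Among all tested genes 51.4% were higher. In the pools 6 of 7 stress response genes were higher in the TRF2DBDM pool (median 0.13), against 4050 of all 7789 genes compared. Atf3, a stress-induced transcription factor, had 174 in the TRF2DBDM pool and 61.6 in the GFP pool, without replicates.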
